A study of Mus musculus with 11 samples.

Results

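The insulin-like growth factor (IGF) system of the testis was followed through 10 genes: the ligands Igf1 and Igf2, the receptors Igf1r and Igf2r, and the binding proteins Igfbp2, Igfbp3, Igfbp4, Igfbp5, Igfbp6 and Igfbp7. The genes were chosen by name, with earlier results of these data known. Every probe set whose single annotated symbol was one of them was taken. That gave 28 probe sets of the 45101 on the array and 10 of the 18194 genes with a probe set of their own. RNA came from SV (the Sertoli valve, the terminal segment of the seminiferous tubule where it meets the rete), RT (the rete testis, the network of channels that collects fluid from the tubules) and ST (the convoluted seminiferous tubules), measured in 4 SV, 3 RT and 4 ST arrays. All regions came from testes of W/Wv mice aged 7 weeks, compound mutants of Kit whose tubules hold few or no germ cells, so no region here had normal spermatogenesis. Each array was made from a pool of 20 testes, and in all regions trypan blue had been passed in through the efferent ducts so that the pieces could be cut apart by hand. Because the pieces hold several cell types, fewer cells of a type and less RNA per cell cannot be told apart in any value below.

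IGF1 and IGF2 are secreted hormones that act mainly through the receptor tyrosine kinase IGF1R, which signals through insulin receptor substrates to PI3K and AKT. IGF2R, the cation-independent mannose 6-phosphate receptor, binds IGF2 and carries it to lysosomes without such a signal. The binding proteins hold IGFs in the extracellular space and can limit or prolong their action, and proteases such as pregnancy-associated plasma protein A (PAPP-A) cut some of them to free the ligand. In the testis, IGF1 is known as a product of Leydig and Sertoli cells, and IGF signaling is needed for Sertoli cell number.

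The values are MAS5.0 signals, which have no unit and are comparable for 1 probe set between arrays but not between probe sets. Calls are those of limma with a change of over 2-fold and a Benjamini-Hochberg adjusted p (taken over all 45101 probe sets) under 0.05. Of the 28 probe sets, 15 were called higher in RT than in ST and 0 lower, where 10.2% of all probe sets were higher and 5.48% lower. In SV against ST, 6 were higher and 0 lower, with backgrounds of 1.50% and 0.0665%. In SV against RT, 0 were higher and 9 lower, with backgrounds of 2.95% and 4.99%. The F-test over the 3 regions passed an adjusted p of 0.05 for 17 of the 28, against 21.3% of all probe sets. Over the 28, the log2 fold changes had a median of 0.71 in SV against ST, 1.11 in RT against ST and -0.56 in SV against RT, beside 0.00, 0.13 and -0.11 over all probe sets. These counts lean on Igf1 and Igfbp4, which have 4 and 6 probe sets. With the brightest probe set of each gene, 5 of 10 genes were higher in RT than in ST (Igf1, Igf2r, Igfbp2, Igfbp4 and Igfbp5), 2 were higher in SV than in ST (Igfbp4 and Igfbp5), and 2 were lower in SV than in RT (Igf1 and Igfbp5). Of all 18194 genes by their brightest probe set, 12.5% were higher in RT than in ST. The shares were 2.39% higher in SV than in ST and 6.41% lower in SV than in RT.

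Arrays of replicates 1 and 2 stood apart from those of replicates 3 and 4 in every region. The 18S ribosomal RNA probe set had signals of 20680 to 32130 in replicates 1 and 2 and 6064 to 12750 in replicates 3 and 4, and the Actb 3′ over 5′ ratio was 1.31 to 1.43 in replicates 1 and 2 and 1.73 to 2.12 in replicates 3 and 4. With only replicates 3 and 4, limma called 0 of all 45101 probe sets in SV against ST and in SV against RT (2606 and 6624 at an unadjusted p under 0.05), so that setting says nothing of the members there. In RT against ST it called 1016 higher and 869 lower, among them 9 member probe sets. It leaves 1 RT array, whose spread is taken from the other regions.

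**Figure D1:**
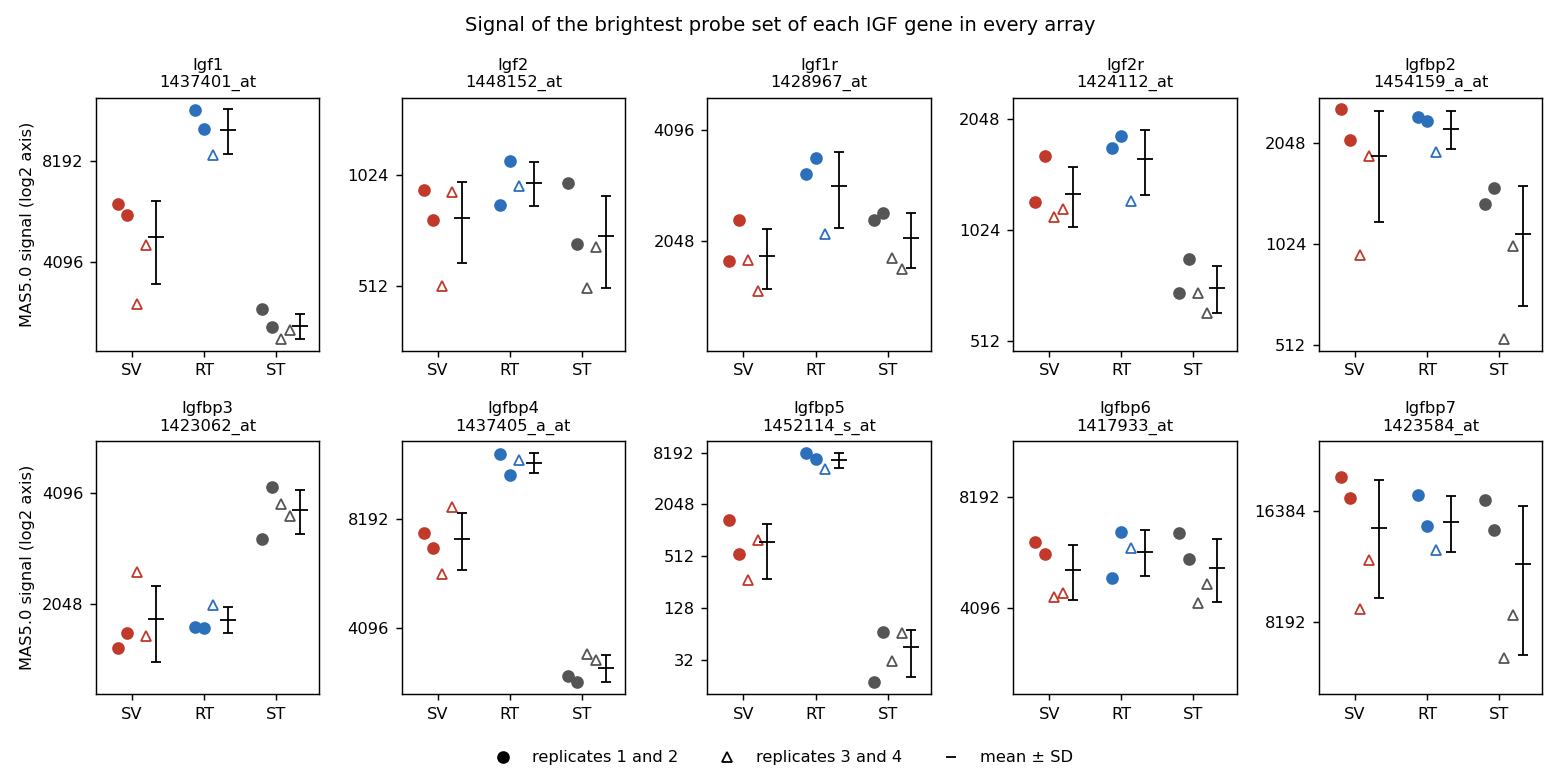
MAS5.0 signal (log2 axis) of the brightest probe set of each gene in SV, RT and ST; filled circles are replicates 1 and 2, open triangles are replicates 3 and 4, and bars are the mean ± SD of 4, 3 and 4 arrays. Igfbp5 covers the widest range, with 5336 to 8114 in RT and 17.33 to 67.13 in ST, while Igf2, Igf1r, Igfbp6 and Igfbp7 overlap between regions.

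The promoters of the 3 genes with the largest F values, Igfbp5, Igfbp4 and Igf1, which moved together across the regions, are shown as the 250 bases before the RefSeq transcription start (GRCm38.p6, 5′ to 3′ on the gene's strand). Igfbp5 lies on the minus strand at chr1:72874866-72875115, Igfbp4 on the plus strand at chr11:99040994-99041243 and Igf1 on the plus strand at chr10:87860861-87861110. Capitals mark matches on either strand to TATAAA (the TATA box), GGGCGG (a GC box, the core bound by Sp1) or AGGTCA (the half-site of nuclear receptors such as the retinoic acid receptors).
Igfbp5: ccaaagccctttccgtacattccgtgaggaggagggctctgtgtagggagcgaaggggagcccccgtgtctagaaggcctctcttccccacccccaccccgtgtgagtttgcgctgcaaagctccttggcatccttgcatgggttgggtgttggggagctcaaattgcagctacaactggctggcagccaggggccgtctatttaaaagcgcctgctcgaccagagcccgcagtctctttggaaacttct
Igfbp4: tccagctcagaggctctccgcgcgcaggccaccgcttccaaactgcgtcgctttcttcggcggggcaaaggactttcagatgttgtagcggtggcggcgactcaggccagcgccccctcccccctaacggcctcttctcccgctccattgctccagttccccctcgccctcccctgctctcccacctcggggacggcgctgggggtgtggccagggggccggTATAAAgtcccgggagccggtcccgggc
Igf1: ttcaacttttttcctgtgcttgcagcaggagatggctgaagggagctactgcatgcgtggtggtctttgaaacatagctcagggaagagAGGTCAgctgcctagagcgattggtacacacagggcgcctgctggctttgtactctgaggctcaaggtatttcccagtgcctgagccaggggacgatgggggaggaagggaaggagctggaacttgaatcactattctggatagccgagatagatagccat
Igfbp4 had a TATAAA that begins 28 bases before the start, and Igf1 had an AGGTCA that begins 161 bases before it. None of the 3 motifs was found in the window of Igfbp5. TATAAA is found in 13.6%, GGGCGG in 35.7% and AGGTCA in 16.3% of the 32851 RefSeq promoter windows, each 300 bases long. Those windows reach past the start, so the shares are for a longer stretch than the 250 bases shown. No motif was thus shared by the promoters of these 3 genes, and the motifs were chosen after some of the sequences had been seen. A match is a run of letters and was not tested as a binding site.

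Among the ligands, Igf1 was highest in RT. Its brightest probe set (1437401_at) had signals of 6103, 5672, 3064 and 4604 in SV, 11670, 10210 and 8565 in RT, and 2961, 2617, 2409 and 2567 in ST. No array of one region overlapped another region, though the lowest SV array (replicate 3) came close to the highest ST array. RT exceeded ST by a log2 fold change of 1.94 ± 0.21 (standard error, adjusted p = 1.86e-05, limma), or 3.83-fold. SV was below RT by -1.10 ± 0.21 (adjusted p = 0.00324), and above ST by 0.84 ± 0.19 (adjusted p = 0.0380), which is under 2-fold and so not called. The other 3 Igf1 probe sets were also called in RT against ST (1.86 to 2.28) and in SV against RT (-1.52 to -1.10). In SV against ST they had 0.66 to 0.76 and none passed the adjusted p. The SV against ST value of 1437401_at passed both thresholds without SV replicate 3 (1.04, adjusted p = 0.00103). The call in SV against RT ended in 6 of 25 alternatives, among them leaving out SV replicate 3 (-0.89) or RT replicate 1 (-0.99) and centring each array on its median (-0.78).

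Igf2, the growth factor of fetal life that is expressed from the paternal allele, did not pass the test in any comparison. Its brightest probe set averaged 786 ± 195 in SV, 976.3 ± 134 in RT and 701.5 ± 196 in ST (SD, n = 4, 3 and 4), and the arrays overlapped. The log2 fold change was 0.17 in SV against ST (95% interval -0.31 to 0.64) and 0.51 in RT against ST (0.00 to 1.02), so a change of 2-fold in either direction lies outside the interval in SV. The second, dim probe set (1415931_at) read 43.53 to 72.53 in SV, 46.20 to 54.43 in RT and 21.88 to 36.56 in ST, with neither SV nor RT overlapping ST. It did not pass the test, with 0.74 ± 0.35 for SV against ST (adjusted p = 0.394) and 0.72 ± 0.38 for RT against ST (adjusted p = 0.204).

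The receptors differed from each other. Igf1r, which transmits the signal of both ligands, had 5 probe sets, and none was called. The brightest (1428967_at) averaged 1861 ± 345 in SV, 2890 ± 675 in RT and 2080 ± 355 in ST. The log2 change of this probe set was -0.16 in SV against ST (95% interval -0.55 to 0.23) and 0.46 in RT against ST (0.04 to 0.88, adjusted p = 0.108). In SV against RT it was -0.62 ± 0.20 (adjusted p = 0.0495, under 2-fold). All 5 Igf1r probe sets were below ST in SV (-0.58 to -0.16) with no adjusted p under 0.05, and in RT against ST they disagreed in sign (-0.70 to 0.46).

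Igf2r, the receptor that clears IGF2, was called in RT against ST. Its brightest probe set (1424112_at) had signals of 1219, 1623, 1107 and 1165 in SV, 1703, 1838 and 1228 in RT, and 692.7, 856, 690.2 and 611.4 in ST. SV and RT overlapped each other, and both lay above every ST array. RT exceeded ST by 1.15 ± 0.18 (adjusted p = 3.65e-04). SV exceeded ST by 0.84 ± 0.17 (adjusted p = 0.0184), under 2-fold, and SV against RT gave -0.31 (95% interval -0.70 to 0.08). The RT call ended with each array centred on its median (0.72, adjusted p = 0.0255) and with replicates 3 and 4 alone (0.92, adjusted p = 0.0601). The second probe set (1424111_at) was not called, with 0.52 ± 0.19 for SV against ST (adjusted p = 0.223) and 0.44 ± 0.21 for RT against ST (adjusted p = 0.149). A further probe set annotated to both Airn, the antisense RNA of this imprinted locus, and Igf2r was not used.

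**Figure D2:**
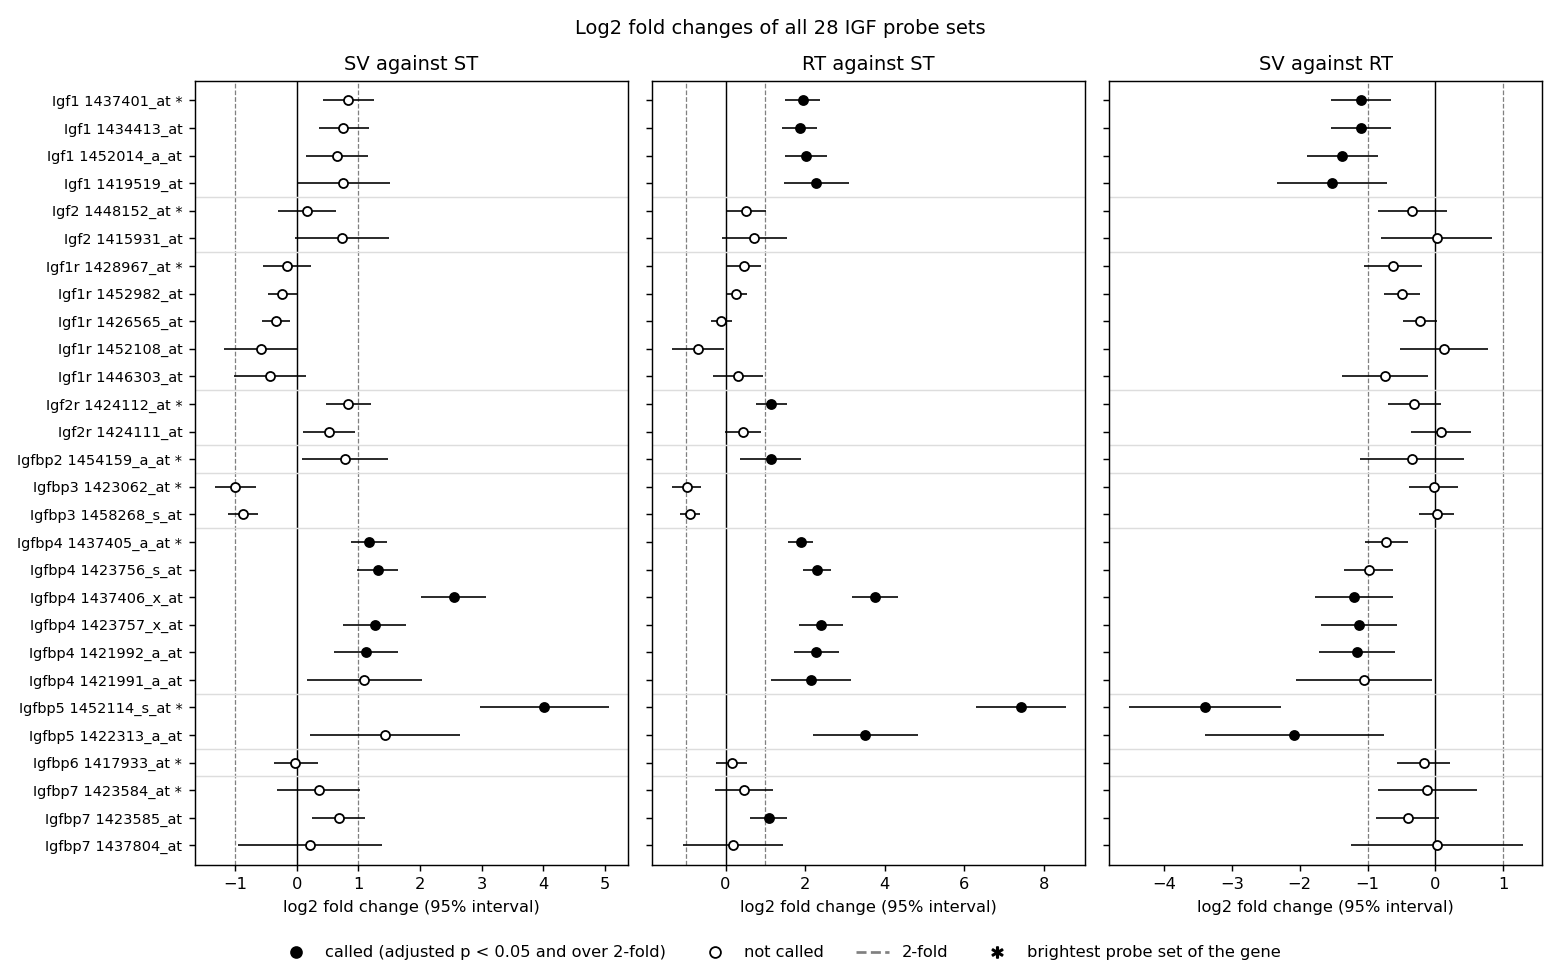
Log2 fold change (x axis) with its 95% interval for all 28 probe sets in SV against ST, RT against ST and SV against RT, grouped by gene; filled points were called, dashed lines mark 2-fold and a star marks the brightest probe set of a gene. All 6 Igfbp4 probe sets and both Igfbp5 probe sets were called in RT against ST, and the 2 Igfbp3 probe sets lie at the lower 2-fold line in both comparisons with ST.

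The binding proteins held the widest range of changes. Igfbp5, which binds to extracellular matrix as well as to IGFs, stood first of all members. Its brightest probe set (1452114_s_at) had signals of 1363, 547, 271.3 and 798.1 in SV, 8114, 6962 and 5336 in RT, and 17.33, 67.13, 30.74 and 65.17 in ST. The regions did not overlap, and SV lay between RT and ST in every array. The log2 fold change was 4.02 ± 0.48 in SV against ST (adjusted p = 5.25e-04), 7.42 ± 0.52 in RT against ST (adjusted p = 9.59e-07) and -3.40 ± 0.52 in SV against RT (adjusted p = 9.41e-04). The ST signals were below the median signal of their arrays (65.8 to 85.1), where the size of a fold change depends on how dim values are treated: with 32 added to every signal it was 3.18 in SV and 6.51 in RT. Both SV calls ended with the methods' t-test after Benjamini-Hochberg (adjusted p = 0.114 against ST and 0.0504 against RT), which called 69 of 45101 probe sets in SV against ST. The second probe set (1422313_a_at) was called in RT against ST (3.51 ± 0.61, adjusted p = 7.82e-04) and in SV against RT (-2.08 ± 0.61, adjusted p = 0.0375), but not in SV against ST (1.44 ± 0.56, adjusted p = 0.269). It read 31.03 to 108.2 in SV, 198.4 to 290.4 in RT and 9.584 to 55.44 in ST.

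Igfbp4, known mainly as an inhibitor of IGF action and a substrate of PAPP-A, also ran in the order RT, SV, ST. Its brightest probe set (1437405_a_at) had signals of 7482, 6802, 5762 and 8828 in SV, 12370, 10860 and 11960 in RT, and 3009, 2887, 3455 and 3337 in ST. No region overlapped another. SV exceeded ST by 1.17 ± 0.13 (adjusted p = 3.99e-04) and RT exceeded ST by 1.89 ± 0.15 (adjusted p = 1.90e-06). SV against RT gave -0.72 ± 0.15 (adjusted p = 0.00541), under 2-fold. In RT against ST all 6 probe sets were called (1.89 to 3.75), in SV against ST 5 (1.12 to 2.55), and in SV against RT 3 were lower. The sixth in SV against ST (1421991_a_at) had 1.10 ± 0.43 (adjusted p = 0.269) and was called with the replicate number as a block (1.10, adjusted p = 0.0224). SV exceeded ST in each of its 4 same-numbered pairs. With that block it was also called in SV against RT (-1.07, adjusted p = 0.0151), as was 1423756_s_at (-1.02, adjusted p = 2.95e-04). The SV against ST call of the brightest probe set ended with the methods' t-test after Benjamini-Hochberg (adjusted p = 0.0661). Probe sets whose IDs end in s_at or x_at, which include some of Igfbp4 and the brightest of Igfbp5, can also bind related transcripts.

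Igfbp2, a binding protein with preference for IGF2, passed the test in RT against ST only narrowly. It did not pass the F-test over the 3 regions (adjusted p = 0.0712). Its probe set had signals of 2570, 2089, 947.6 and 1867 in SV, 2447, 2381 and 1913 in RT, and 1346, 1497, 531.9 and 1009 in ST. RT lay above every ST array, while replicate 3 was the lowest array in both SV and ST and SV overlapped ST. On the log2 scale the difference was 1.13 ± 0.35 in RT against ST (adjusted p = 0.0311) and 0.78 ± 0.33 in SV against ST (adjusted p = 0.309). The RT call ended in 10 of 25 alternatives, among them leaving out RT replicate 1 (1.07, adjusted p = 0.103), RT replicate 2 (1.09, adjusted p = 0.0968), ST replicate 3 (0.82, adjusted p = 0.0693) or ST replicate 4 (1.13, adjusted p = 0.0586).

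Igfbp3, the main carrier of IGFs in serum, was the only member with an adjusted p under 0.05 and a lower signal than ST by its brightest probe set (1423062_at). It had signals of 1555, 1708, 2510 and 1678 in SV, 1779, 1766 and 2038 in RT, and 3073, 4262, 3816 and 3559 in ST. All SV and RT arrays lay below all ST arrays, and SV and RT overlapped. The log2 fold change was -1.0 ± 0.16 in SV against ST (adjusted p = 0.00370) and -0.98 ± 0.17 in RT against ST (adjusted p = 7.53e-04). Both sit at the 2-fold threshold and were not called, being 0.501 and 0.509 of the ST signal. On leaving out single arrays, Igfbp3 crossed the threshold against ST in SV when SV replicate 3 (-1.15), ST replicate 1 (-1.08) or the array of ST replicate 4 (-1.01) was dropped. For RT this happened when RT replicate 3 (-1.04) or the array of ST replicate 1 (-1.06) was dropped. In SV against RT it was -0.02 (95% interval -0.39 to 0.34). The second probe set (1458268_s_at) gave -0.87 ± 0.11 for SV against ST (adjusted p = 8.13e-04) and -0.89 ± 0.12 for RT against ST (adjusted p = 1.08e-04), also under 2-fold.

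Igfbp6, another binding protein with preference for IGF2, did not differ by the test in any comparison, with 5197 ± 893 in SV, 5831 ± 821 in RT and 5276 ± 1020 in ST. Its 95% intervals were -0.37 to 0.34 in SV against ST and -0.23 to 0.54 in RT against ST. Igfbp7, a related protein that binds IGFs weakly and is secreted by endothelium, gave different answers by probe set. The brightest (1423584_at) averaged 14730 ± 5190 in SV, 15320 ± 2650 in RT and 11800 ± 5120 in ST and was not called. Its ST arrays split by replicate, with 17560 and 14520 in replicates 1 and 2 and 6549 and 8563 in replicates 3 and 4. The dimmer 1423585_at had signals of 334.7, 365.2, 198 and 298 in SV, 398.4, 429.1 and 337 in RT, and 200.4, 185.5, 158.7 and 186.9 in ST. RT was above every ST array and was called (1.08 ± 0.22, adjusted p = 0.00207), and SV overlapped ST (0.68 ± 0.20, adjusted p = 0.112). The RT call ended with quantile normalization (0.82), median centring (0.66), 32 added to the signal (0.97) or replicates 3 and 4 alone (0.97). The third (1437804_at) was not called and overlapped between all regions.

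Markers of rete testis epithelium and of efferent duct moved with the same regions. The methods of the study name as a limitation that SV pieces very probably held some cells of the RT. Of 8 rete testis epithelium markers, among them Krt8 and Pax8, 7 were higher in SV than in ST and 8 in RT, and 0 were lower. Their summed signal was 3142 to 7290 in SV, 19030 to 29690 in RT and 604.5 to 922.7 in ST. The median rete marker stood 4.42, 3.55, 3.02 and 3.86 (log2) above the ST mean in SV arrays 1 to 4. The brightest Igfbp5 probe set placed these SV arrays in the same order, with replicate 1 highest and replicate 3 lowest. Its second (1422313_a_at: 108.2, 66.44, 31.03 and 59.83 in replicates 1 to 4) did not. The brightest probe sets of Igf1 (6103, 5672, 3064 and 4604) and Igfbp4 (7482, 6802, 5762 and 8828) were also lowest in replicate 3. They did not keep that order, but another of each gene did. These were 1434413_at of Igf1 (5636, 4201, 2769 and 4439) and 1421992_a_at of Igfbp4 (1706, 1213, 713 and 1605). The remaining probe sets of Igf1 and Igfbp4 did not. The median of the Leydig cell markers was lowest in SV replicate 3 too, at -0.36 (log2) against the ST mean. Efferent duct markers were higher in RT than in ST for 6 of 6 and in SV for 3 of 6, with a summed signal of 1885 to 4864 in SV, 6123 to 15290 in RT and 1671 to 2485 in ST. The part of these tissues in the values of Igf1, Igfbp4 and Igfbp5 was not tested.

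Other marker lists moved less. Of 10 Sertoli cell markers, 0 were called in SV against ST and 6 were lower in RT, with a summed signal of 43310 to 61310 in SV, 24900 to 32670 in RT and 60860 to 76320 in ST. All had a negative log2 change in SV against ST, with a median of -0.48, where only 0.0665% of all probe sets were called lower. For Rhox5 (-1.24), Fshr (-1.05) and Dmrt1 (-0.62), every SV array lay below every ST array. Of 5 measured Leydig cell markers 0 were called in any comparison (28090 to 68170 in SV, 33580 to 43250 in RT and 21870 to 47710 in ST). Among 6 vascular endothelium markers, 1 was higher in SV and 3 in RT (1387 to 3314 in SV, 4200 to 5374 in RT and 804.7 to 1264 in ST). For 4 lymphatic endothelium markers the counts were 0 in SV and 2 in RT (2225 to 4022 in SV, 5982 to 6839 in RT and 1384 to 1759 in ST). A sum is led by the brightest markers of a list. In RT the vascular sum was mostly Kdr (mean 2915, and 205.8 in ST) and the lymphatic sum mostly Pdpn (5981, and 1475 in ST). Of the vascular markers not called in RT against ST, Pecam1 (-0.33) and Tek (-0.24) were lower and Cdh5 (0.74) was higher. Of 6 markers of fibroblasts and stroma, 0 were called in SV and 1 was higher in RT (33180 to 46110 in SV, 50190 to 62050 in RT and 28980 to 43580 in ST). Of 6 markers of peritubular myoid cells and smooth muscle, 0 were called in SV and 3 were lower in RT (9310 to 11000 in SV, 3645 to 7351 in RT and 9308 to 15570 in ST). Their part in the IGF values was not tested. Macrophage, mesothelium and spermatogonia lists had at most 1 of their markers higher in SV or RT, and 3 of 5 spermatogonia markers were lower in RT.

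**Figure D3:**
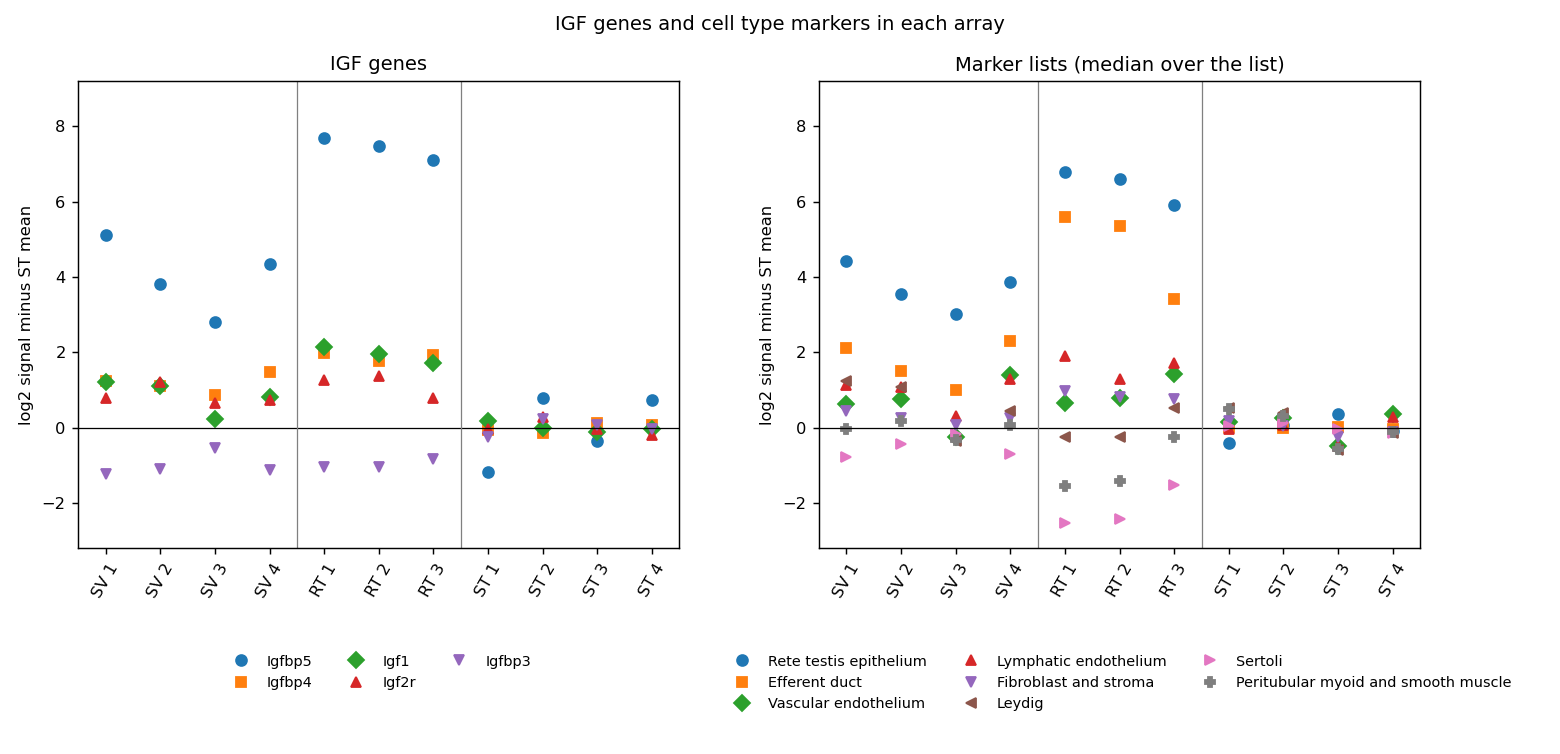
Log2 signal minus the ST mean (y axis) in each SV, RT and ST array, for the brightest probe set of 5 IGF genes (left) and for the median of 8 marker lists (right). Igfbp5 and the rete testis markers are highest in RT, between in SV and near 0 in ST; Igfbp3 is below 0 in every SV and RT array.

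Over the 11 arrays, the genes whose log2 signal was most like that of Igfbp5 were Slc6a17 (Pearson r = 0.993), Kdr (0.992) and Wwc1 (0.992). For Igfbp4 they were Pdgfa (0.998), Mia (0.995) and Tgfb2 (0.994). For Igf1 they were Nfib (0.995), Pard3 (0.994) and Peli2 (0.992). Of 9087 genes compared, 655, 511 and 886 had r over 0.9 with Igfbp5, Igfbp4 and Igf1. The arrays share their regions, so these values describe a common order of regions.

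Of the other genes of the pathway, 36 were measured. In RT against ST, 6 were higher and 5 lower, in SV against ST 1 was higher and 0 lower, and in SV against RT 1 was higher and 4 lower. That is 16.7% higher and 13.9% lower in RT against ST, beside 12.5% and 7.34% of all 18194 genes by their brightest probe set. In SV against ST it is 2.78% higher, beside 2.39%, and in SV against RT 2.78% higher and 11.1% lower, beside 4.39% and 6.41%. Their median log2 fold change was -0.07 in SV against ST, 0.25 in RT against ST and -0.17 in SV against RT. Igfbp1, a binding protein known from liver and decidua, had signals of 19.74, 1.299, 5.043 and 40.11 in SV, 388.8, 376.6 and 76.84 in RT, and 4.605, 5.939, 4.442 and 4.28 in ST. Only RT stood clear of ST, by 5.55 ± 1.01 (adjusted p = 1.12e-03), and SV was below RT by -4.72 ± 1.01 (adjusted p = 0.00729). The SV and ST signals are dim, so the sizes are uncertain. The SV against RT call of Igfbp1 ended with the methods' t-test after Benjamini-Hochberg (adjusted p = 0.137).

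Pappa, which encodes PAPP-A, and the stanniocalcin genes were called in RT against ST. Stc2, which encodes stanniocalcin 2, an inhibitor of PAPP-A, had signals of 696.5, 519.9, 313.7 and 557.2 in SV, 2063, 2040 and 1991 in RT, and 196.2, 172.5, 162.7 and 152 in ST. The 3 regions did not overlap, and Stc2 was the 1 pathway gene called in SV against ST (1.56 ± 0.20, adjusted p = 0.00103), though not with the methods' t-test after Benjamini-Hochberg (adjusted p = 0.105). It was 3.58 ± 0.22 higher in RT than in ST (adjusted p = 4.25e-07) and -2.02 ± 0.22 in SV against RT (adjusted p = 2.05e-04). Stc1, the related stanniocalcin, read 43.63 to 173.4 in SV, 128.7 to 152.1 in RT and 1.834 to 81.53 in ST, and RT exceeded ST by 3.24 ± 0.97 (adjusted p = 0.0248). This call, against dim ST signals, ended on leaving out any RT array (adjusted p = 0.0714, 0.0782 and 0.0565) or ST replicate 2 (adjusted p = 0.059). In SV against ST, Stc1 had 2.81 ± 0.90 (adjusted p = 0.148) and was called without ST replicate 3 (3.64, adjusted p = 0.0402). Pappa, the protease itself, had signals of 543.8, 604.7, 1062 and 918.9 in SV, 100.7, 165.4 and 406.7 in RT, and 739.9, 915, 1276 and 1332 in ST. RT lay below every SV and ST array, and SV overlapped ST. Pappa fell by 2.45 on the log2 scale in RT against ST (adjusted p = 4.54e-04) and SV exceeded RT by 1.99 ± 0.40 (adjusted p = 0.00461). The SV against RT call of Pappa ended with the methods' t-test after Benjamini-Hochberg (adjusted p = 0.118).

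Among the genes downstream of the receptor, Pik3r1, the regulatory subunit of PI3K, was higher in RT than in ST (1.98 ± 0.28, adjusted p = 1.51e-04) and lower in SV than in RT (-1.32 ± 0.28, adjusted p = 0.00634). The latter call ended with the methods' t-test after Benjamini-Hochberg (adjusted p = 0.131). Ghr, the growth hormone receptor that drives Igf1 in liver, was higher in RT than in ST (1.92 ± 0.18, adjusted p = 8.78e-06) and lower in SV than in RT (-1.22 ± 0.18, adjusted p = 9.07e-04). In SV against ST it had 0.70 ± 0.17 (adjusted p = 0.0513), under 2-fold. Its SV against RT call ended with each array centred on its median (-0.90). In RT against ST the lower genes included Igf2bp1, an mRNA-binding protein (-1.40 ± 0.28, adjusted p = 0.00234), Grb14, an adaptor that restrains the insulin receptor (-1.38 ± 0.13, adjusted p = 5.94e-06), and the kinase gene Akt2 (-1.02 ± 0.13, adjusted p = 8.00e-05). The Igf2bp1 call ended with 32 added to every signal (-0.99). Akt2 sits at the 2-fold threshold and fell short of it when single arrays were left out, with -0.96 and -0.97 after dropping replicate 1 or 3 of RT and -0.97 and -0.99 after dropping replicate 1 or 2 of ST.

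**Figure D4:**
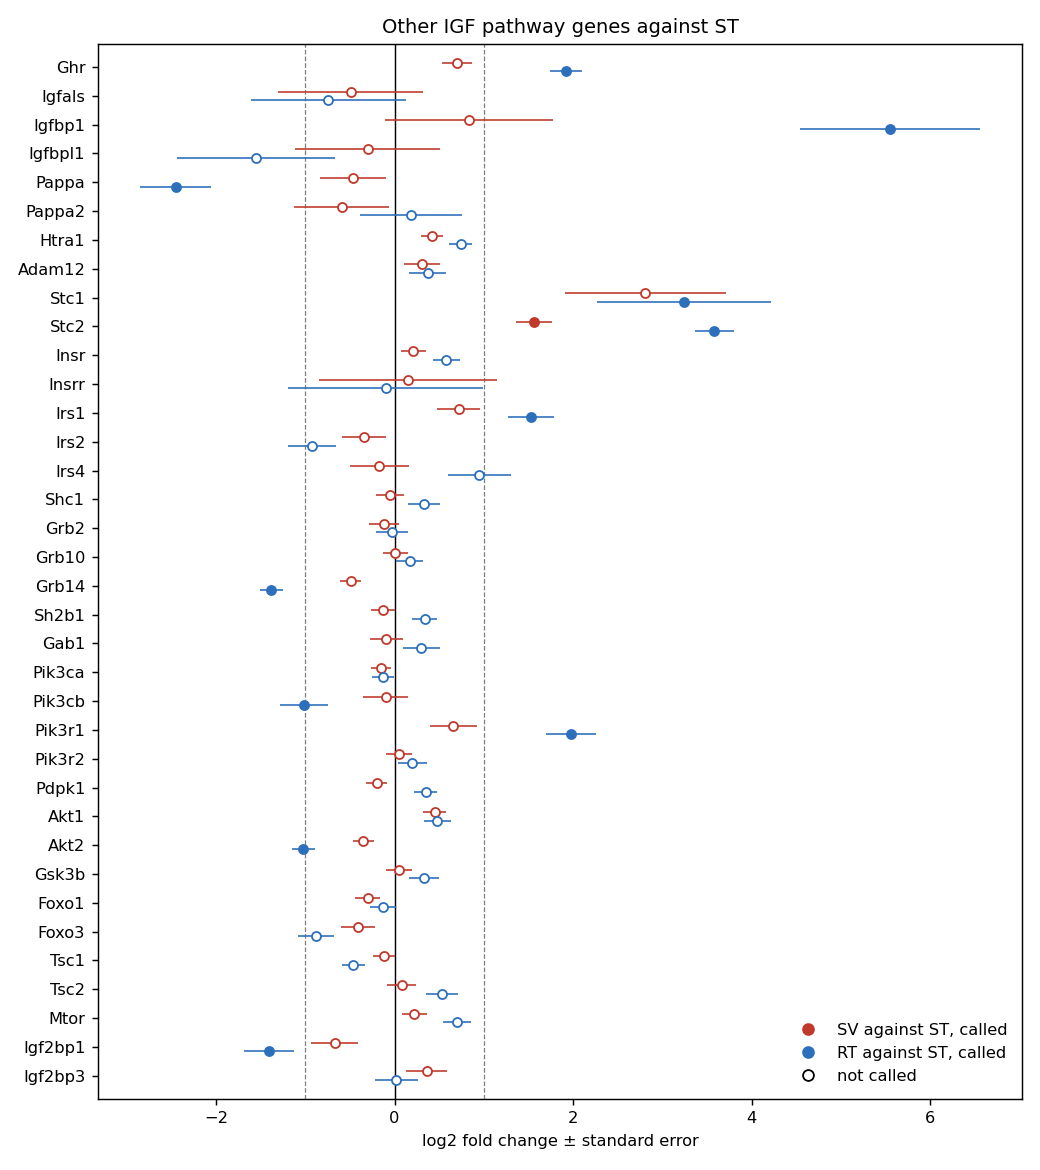
Log2 fold change ± standard error (x axis) of 36 other IGF pathway genes, by their brightest probe set, in SV against ST (red) and RT against ST (blue); filled points were called and dashed lines mark 2-fold. In SV only Stc2 is called (1.56); in RT Igfbp1 is at 5.55 and Pappa at -2.45.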

How the data were processed

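Total RNA of the dissected pieces was labelled with a 3′ IVT kit and hybridized to Affymetrix mouse arrays. Intensity values were deposited by the authors as MAS5.0 signals on a linear scale, without a version, and each array has a mean of 500 after trimming 2% at each end. Scaling of this kind fixes a total, so values are relative to the other RNA of a piece. What limits precision was not tested.

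Log2 signals of all 11 arrays were fitted by limma 3.58.1 in R 4.3.3 (lmFit, eBayes with trend), and intervals cover 95%. Each gene is led by its probe set with the highest mean log2 signal. Per-array values are given for members called in a comparison; of other pathway genes, up to 4 called per comparison and direction are named. Members and lists were chosen with earlier results of these data known. The calling procedure was checked on simulated data with independent arrays and changes added to RT only. Those data lack the difference between replicate sets, so the check does not bear on its effect. Alternatives were the methods' t-test, 2 regions only, quantile normalization, median centring, an added constant or floor of 32, leaving out dim probe sets, no trend, replicate blocks, each replicate set alone, leaving out each array, no fold threshold and 1 probe set per gene. Promoters are from RefSeq (GRCm38.p6), with a window for all 10 genes. Some listed pathway genes and Leydig markers are not reported here. Plots were made in matplotlib 3.10.9 under Python 3.11.15. Labels call the arrays biological replicates; whether pools shared animals is not given in the sources used here, so p-values measure the spread between arrays. Labels give the regions the same replicate numbers. After removing region means, same-numbered arrays correlated at 0.144 to 0.19 between SV and ST and at 0.1 to 0.148 between SV and RT. Between RT and ST they correlated at 0.069 to 0.15. Arrays of another number in the same set of replicates correlated at 0.07 to 0.178 over all regions. Between SV and ST they correlated at 0.07 to 0.142, below every same-numbered pair. Over probe sets with a mean log2 signal at or above the median, they correlated there at 0.168 to 0.391. Same-numbered SV and ST arrays then correlated at 0.513 to 0.67. In both comparisons with RT the ranges overlapped, so there these values cannot separate pairing from the replicate sets. A fit with a replicate block was therefore set beside the main fit without one.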

Additional observations from a re-analysis of the deposited data

Results flagged for a closer look

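In 3 of 128 groups of 4 arrays, 1 array lay far from the others by Dixon's test, which chance alone gives in about 1 in 20 groups. The Igfbp4 probe set 1423756_s_at read 3156 in SV replicate 3 and 4968 to 5435 in the other SV arrays. The Igfbp3 probe set 1458268_s_at read 2139 in ST replicate 3 and 2583 to 2678 in the other ST arrays. Igfbpl1, a gene related to the binding proteins (1450960_at), read 55.87 in ST replicate 2 and 8.167 to 10.72 in the other ST arrays.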

How the results depend on the processing

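Of the 28 member probe sets, 9 of the 15 called higher in RT than in ST kept the call in every alternative that could be fitted; 0 of the 6 higher in SV than in ST and 0 of the 9 lower in SV than in RT did. No called log2 fold change of a brightest probe set changed sign. In SV against ST, the 6 higher calls became 0 with the methods' t-test after Benjamini-Hochberg and with replicates 3 and 4 only, and 2 (of 10) with 1 probe set per gene. The 0 lower calls became 1 with median centring and with replicates 1 and 2 only, 2 with no fold threshold, and 0 to 1 on leaving out each array. In RT against ST, the 15 higher calls became 9 with replicates 3 and 4 only and 5 with 1 probe set per gene. The 0 lower calls became 1 with quantile normalization, with replicates 1 and 2 only and with the replicate block, 3 with median centring, 2 with no fold threshold, and 0 to 1 on leaving out each array. In SV against RT, the 9 lower calls became 0 with the methods' t-test after Benjamini-Hochberg and with replicates 3 and 4 only, and 2 with median centring and with 1 probe set per gene. On leaving out each array they were 3 to 10, with 3 without SV replicate 3, 4 without RT replicate 1 and 5 without RT replicate 2. With replicates 3 and 4 only, 0 of 45101 probe sets were called in either SV comparison, so no member could keep a call. For the other changes the cause was not tested.

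Over all probe sets the median of RT against ST was 0.13, against -0.07 with quantile normalization and -0.29 with median centring, and 65.1%, 49.6% and 34.9% of calls were higher. Between SV and ST, same-numbered arrays correlated above arrays of another number in the same set. In comparisons with RT those ranges overlapped, and the labels do not say whether same-numbered arrays are pairs. In RT against ST, the replicate block gave 1 lower call, Igfbp3 (-1.0, adjusted p = 8.44e-05). Over the members the block changed 4 calls, this one and 3 of Igfbp4. Dim signals, as of Igfbp5 and Igfbp1 in ST, make the size of their fold changes uncertain.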
